A study of Schizosaccharomyces pombe with 8 samples.

Results

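Histone H3 occupancy was mapped by ChIP-on-chip in fission yeast cells at the start of premeiotic S phase, and the 2 arrays of cells kept in nitrogen-rich medium (+N) were set against the 2 arrays of cells depleted of nitrogen (−N). These 4 arrays were chosen by their antibody, anti-H3 (ab1791), out of 8 arrays in the series. The other 4 carried an antibody against H3 trimethylated at lysine 4 (H3K4Me3), and their values are used only beside H3 loci. All cells came from strain PN2159, a homozygous pat1-114 diploid of mating type h+. Meiosis was triggered in both groups by moving them to 34 °C, which inactivates the Pat1 kinase, and samples were taken 30 min later in +N and 2 h later in −N. According to the study's methods, +N cells had been held in G1 by the mating pheromone M-factor and −N cells had been starved and then given nitrogen again. Nitrogen, pheromone and time after the shift therefore differed together and cannot be told apart. Each array compared ChIP DNA (red) with input DNA (green), and every value below is log2 of ChIP over input with the median of that array's nuclear probes at 0. Replicate 1 of both groups was hybridized on slide 1 and replicate 2 of both on slide 2, so that a difference, +N minus −N, could be taken within each slide. Nothing in the labels states that replicates were separate cultures, and the p-values measure only the spread between these arrays.

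H3 is one of the core histones around which DNA is wrapped in every nucleosome, so the H3 signal of a stretch of DNA reports how densely it is packed. Promoters of yeast genes commonly hold a nucleosome-depleted stretch just upstream of the transcription start. Heavily transcribed genes can lose histones over their coding part as well, since polymerases displace or evict nucleosomes as they pass. In fission yeast, the thiamine-repressed gene nmt1 and the glucose-repressed gene fbp1 are long-standing models of such regulated chromatin.

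The 4 H3 profiles had 37239 nuclear probes and 37227 windows, a window being the mean of 5 neighbouring probes. They resembled one another, with Pearson correlations between 0.85 and 0.93 across windows, which are not independent. The lowest was between the 2 +N arrays and the highest between +N and −N on slide 2. Replicates of +N thus differed from each other more than from the −N arrays. The arrays differed in contrast. The standard deviation over windows was 0.644 and 0.461 on the +N arrays of slides 1 and 2, and 0.520 and 0.474 on the −N arrays. The ChIP signal was well above background at 89.2% and 98.4% of probes in +N and at 84.2% and 98.5% in −N, so low values on slide 1 more often rest on dim spots. H3 is absent from mitochondrial DNA, and 66 mitochondrial probes lay at −4.49 and −3.83 relative to the nuclear level in +N, against −3.80 and −4.53 in −N.

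Most of the difference between +N and −N did not repeat between the slides. Its standard deviation over windows was 0.332 on slide 1 and 0.172 on slide 2, and the differences on the slides had a correlation of −0.02 across windows. On slide 1, 3355 windows were lower in +N by at least 0.5 and 1571 were higher by as much. On slide 2 these numbers were 155 and 152. Of the windows lower on slide 2, 78.1% were also below 0 on slide 1, while 27.6% of those higher on slide 2 were above 0 on slide 1. Starting from slide 1 the shares were closer: 49.1% of its lower windows were below 0 on slide 2 and 43.9% of its higher windows were above 0. The density plot of one slide against the other shows a broad cloud with a small tail toward loss on both.

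**Figure D1:**
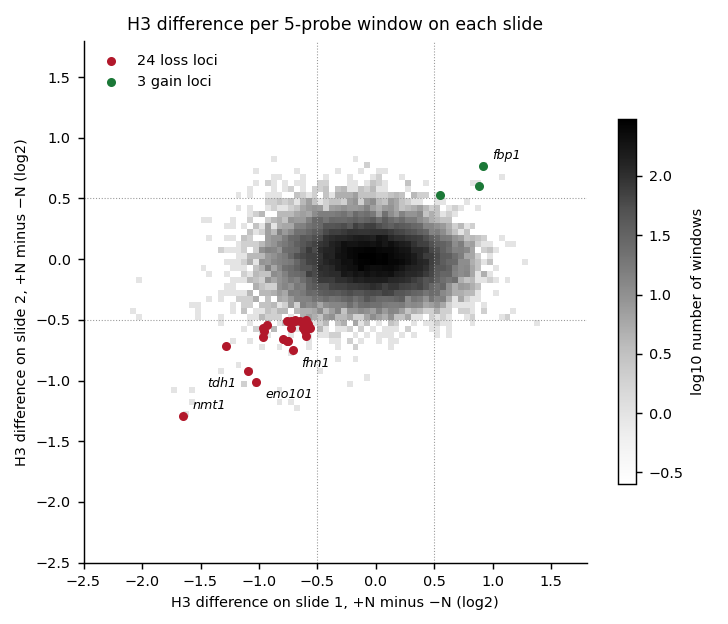
Each grey cell counts windows by their H3 difference, +N minus −N in log2, on slide 1 (x axis) and slide 2 (y axis). Dotted lines mark −0.5 and 0.5, and the 24 loss loci (red) and 3 gain loci (green) are drawn at their peak windows, with nmt1 farthest toward loss at −1.65 and −1.29.

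In 64 windows (0.172% of all) H3 was lower in +N by at least 0.5 on both slides, and these merged into 24 loci of H3 loss. In 5 windows (0.0134%) it was higher by as much on both, which gave 3 loci of gain. The loci were selected by the difference itself, so their values describe them. A limma fit over all windows, 2 arrays against 2 with Benjamini-Hochberg adjustment, called none (0.0%) at an adjusted p of 0.05. The smallest adjusted p was 0.689, and 835 windows had an unadjusted p under 0.05. With the slide as a block, the same fit called 52 windows (0.14%), 50 of them lower and 2 higher in +N. That blocked fit gave every window listed here the same standard error of 0.19, so its calls follow the size of the mean difference and can include a difference seen on 1 slide. An exact permutation test of 2 arrays against 2 cannot go below a two-sided p of 0.333. At the peak windows of the loss loci both +N arrays lay below both −N arrays in 22 of 24, beside 16.5% of all windows. The blocked limma fit called 7 of the 24. Both counts follow largely from how the loci were selected.

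The strongest loss covered nmt1, which encodes an enzyme that makes the pyrimidine precursor of thiamine. Its peak window on chromosome III, positions 1838014 to 1839124, read −2.59 and −1.997 in +N, against −0.94 and −0.71 in −N. Both +N arrays were far below both −N arrays, by −1.65 on slide 1 and −1.29 on slide 2. The window averaged −2.29 ± 0.42 in +N and −0.82 ± 0.17 in −N (SD, n = 2 each), and its blocked adjusted p in limma was 4.31e-10. The locus ran from 1836485 to 1840614 and took in the gene (1838415 to 1839664, plus strand) with its promoter. All 4 probes inside the gene were lower in +N on both slides. At the probe 246 bp after the 5′ end the level was −2.85 and −1.89 in +N, against −0.62 and −0.36 in −N. Part of the depth of the loss was near the detection limit: 5 of 10 ChIP measurements in +N and 7 of 10 in −N were well above background in the peak window. With dim signals raised to the lowest reliable signal of each array, the mean difference was −1.13, against −1.47 as measured.

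The 250 bases upstream of nmt1 are shown because the locus spans the promoter. The 1 probe inside them was not well above background on 3 of the 4 arrays and did not separate the groups, at −1.41 and −2.03 in +N, against −1.63 and −1.15 in −N. They were read from the RefSeq genome (ASM294v3) at chrIII:1838165-1838414, plus strand, with capitals marking a match to TATAAA.
nmt1 upstream: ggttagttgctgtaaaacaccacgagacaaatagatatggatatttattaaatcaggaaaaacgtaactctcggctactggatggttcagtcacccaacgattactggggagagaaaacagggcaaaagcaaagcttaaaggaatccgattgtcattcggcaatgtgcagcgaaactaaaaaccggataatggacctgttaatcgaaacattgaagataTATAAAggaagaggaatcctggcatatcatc
Searched on both strands, TATAAA occurred in 47.2% of 5112 upstream windows of this length. The CCAAT box, searched in the same way, occurred in 35.1%, and the core of the cyclic AMP response element (ACGTCA) in 5.71%. A match of letters does not show that a factor binds there.

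Other genes of thiamine synthesis and uptake did not share a change of this size. Of 10 listed genes, nmt1 included, 9 had a gene body value. The bodies of 5, among them nmt1, were lower in +N on both slides and 1 was higher, with a median difference of −0.07, beside 24.7% and 23.4% of all 4050 gene bodies (median 0.00). In the blocked limma fit, which called 0.222% of all bodies, nmt1 was the only member called. The body of bsu1, a plasma membrane vitamin transporter, read −0.99 and −0.64 in +N, against −0.25 and −0.30 in −N. Its blocked adjusted p was 0.229.

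Next in order came genes of glycolysis and fermentation, with H3 loss centred on or after the coding part. The window at eno101, which encodes enolase, lay on chromosome II at 2201799 to 2202975. It read −1.54 and −1.25 in +N, against −0.52 and −0.23 in −N. The slides gave nearly the same difference, −1.02 and −1.01, and the blocked adjusted p in limma was 0.000301. The centre of the window was 1191 bp into a gene of 1457 bp, and the probes just upstream of the gene did not share the loss on slide 2. At the probe 134.5 bp before the 5′ end, H3 was −2.13 and −1.68 in +N, against −2.15 and −2.26 in −N.

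At tdh1, which encodes glyceraldehyde-3-phosphate dehydrogenase, the peak window (chromosome II, 2808705 to 2809945) read −1.91 and −1.57 in +N, against −0.82 and −0.65 in −N. The groups were apart, by −1.09 and −0.92 on the slides, with a blocked adjusted p of 0.000364. The window's centre was 1730 bp from the 5′ end of tdh1, beyond its 1457 bp, and 549 bp before the start of tfb5. The tfb5 gene, which encodes a subunit of the general transcription factor TFIIH, follows tdh1 on the same strand. The coding parts of both were lower in +N as well. The body of tfb5 read −1.83 and −1.12 in +N, against −0.47 and −0.63 in −N. The body of tdh1 read −3.05 and −2.54 in +N, against −2.47 and −1.22 in −N, and rests on 3 probes. Those 40.5 and 245 bp after the 5′ end were not well above background on slide 1 in either group. Their slide 1 differences were −0.15 and −0.30.

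The last 120 coding bases of eno101 and tdh1 mark the side of each gene on which the loss was centred. They were read from RefSeq (ASM294v3), plus strand, at chrII:2202437-2202556 for eno101 and chrII:2808528-2808647 for tdh1, with the stop codon in capitals.
eno101 coding end: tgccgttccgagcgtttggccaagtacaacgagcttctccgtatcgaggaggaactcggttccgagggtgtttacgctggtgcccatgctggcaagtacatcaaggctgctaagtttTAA
tdh1 coding end: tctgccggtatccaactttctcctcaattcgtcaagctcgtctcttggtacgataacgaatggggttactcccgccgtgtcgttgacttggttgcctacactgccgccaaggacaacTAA
The eno101 stretch lies inside its peak window, and the tdh1 stretch ends just before its peak window begins.

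Another glycolytic locus was adh1, which encodes the alcohol dehydrogenase of fermentation. Its window on chromosome III, 1591272 to 1592843, covered the gene and read −2.32 and −1.59 in +N, against −1.57 and −0.92 in −N. The groups were apart by a narrow margin, since −N on slide 1 lay next to +N on slide 2, and the differences within slides were −0.75 and −0.67. The blocked adjusted p of the window was 0.0849. As a gene body of 5 probes its blocked adjusted p was 0.0268. The loss did not reach upstream: 323.5 bp before the 5′ end H3 was −1.92 and −1.64 in +N, against −2.0 and −2.0 in −N. The 250 bases upstream (RefSeq, chrIII:1591042-1591291, plus strand) are shown for comparison with nmt1, with capitals marking a TATAAA match and, on the minus strand, a CCAAT box.
adh1 upstream: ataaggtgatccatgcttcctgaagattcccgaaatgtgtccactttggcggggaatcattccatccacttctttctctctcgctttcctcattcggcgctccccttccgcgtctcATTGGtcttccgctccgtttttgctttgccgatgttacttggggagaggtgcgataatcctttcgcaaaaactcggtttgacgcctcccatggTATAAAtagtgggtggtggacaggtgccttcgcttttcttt

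As a group and as measured, glycolysis and fermentation did not move one way. Of 19 listed genes, 16 had a body value, and 5 were lower and 5 higher in +N on both slides, with a median difference of 0.06. Once each array's trend with base composition (G+C) was taken out, that median was −0.11, beside −0.003 over all bodies. With blocked limma, 3 of the 16 fell, beside 0.222% of all bodies called: eno101 (adjusted p = 7.01e-05), tdh1 (7.76e-05) and adh1 (0.0268). The body of pgk1, the phosphoglycerate kinase gene, read −1.33 and −0.98 in +N, against −0.98 and −0.46 in −N, with a blocked adjusted p of 0.54. The probe plot of 4 genes shows how the loss ran through nmt1, eno101 and tdh1, and past the 3′ ends of eno101 and tdh1. Every probe inside these genes was lower in +N on both slides, while fbp1 had its change upstream.

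**Figure D2:**
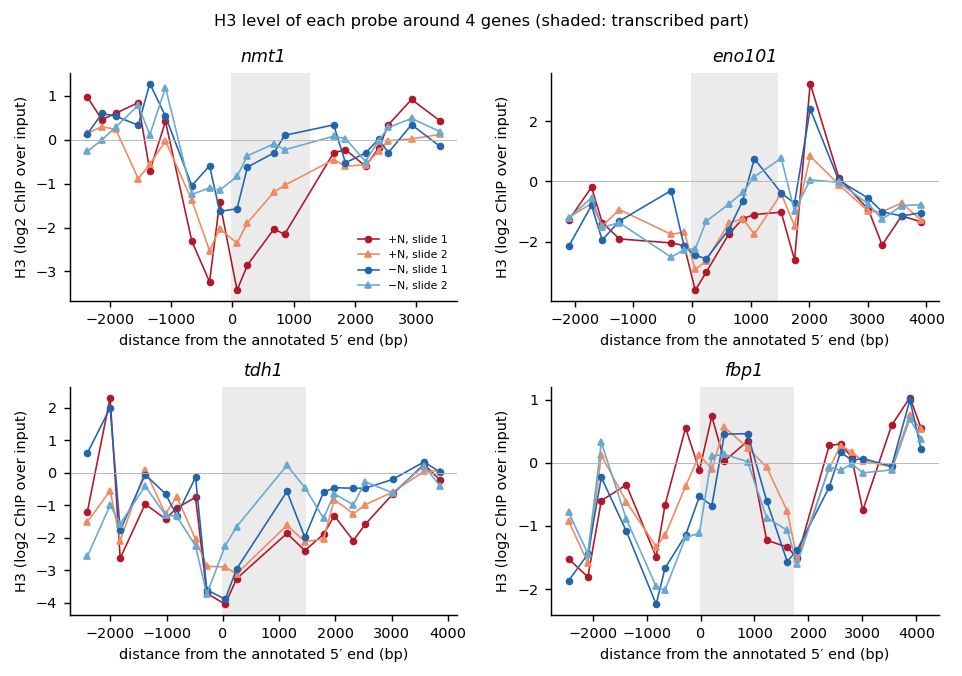
H3 level of single probes (log2 ChIP over input, y axis) by distance from the annotated 5′ end (x axis, bp) for nmt1, eno101, tdh1 and fbp1, with each array drawn separately and the transcribed part shaded. Within each slide, +N lies below −N at every probe inside nmt1, eno101 and tdh1, and above −N just upstream of fbp1.

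The loss at fhn1, whose product belongs to the plasma membrane domains called eisosomes, was nearly equal on the slides. At chromosome II, 527126 to 528314, H3 was −1.22 and −1.06 in +N, against −0.51 and −0.31 in −N, a difference of −0.71 and −0.75. The blocked adjusted p was 0.0711. It covered much of a gene of 3031 bp, and over the 11 probes of the body H3 was −1.54 and −1.09 in +N, against −0.76 and −0.56 in −N.

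Loss between convergent genes was seen at esc1 and pso2, which encode a helix-loop-helix transcription factor and a DNA cross-link repair nuclease (known for that role in budding yeast). The window on chromosome I, 1156023 to 1157104, read −1.07 and −0.73 in +N, against −0.12 and −0.14 in −N. It held the 3′ ends of both genes and had a blocked adjusted p of 0.0399 in limma. At cti1 (chromosome III, 2042007 to 2043308) H3 was −1.32 and −0.66 in +N, against −0.72 and −0.07 in −N. There and at SPAC4A8.14 (chromosome I, 2577402 to 2578431), where it was −0.24 and −0.94 in +N, against 0.36 and −0.30 in −N, the groups overlapped although both slides differed the same way.

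Some loci rested on weak ChIP signal or on a difference in the input. In the centromere region of chromosome II, without coding genes, the window at 1621017 to 1622037 read −3.61 and −4.28 in +N, against −2.33 and −3.57 in −N. Only 3 of 10 ChIP measurements in each group were well above background there. On slide 2 the ChIP channel was higher in +N by 0.69 and the input by 1.44, so that the lower ratio came with more input signal. Likewise, near SPCC569.06 (chromosome III, 2418665 to 2420314) H3 was −2.16 and −2.47 in +N, against −1.37 and −1.81 in −N, with the slide 2 input higher in +N by 1.32 and the ChIP channel by 0.63. At pmp20 (peroxiredoxin) the slide 2 input was higher in +N by 0.90. Across the 24 loss loci the ChIP signal itself was lower in +N on both slides in 21, and these 3 were the exceptions. The loci were selected by a lower ratio of ChIP to input, so this count follows in part from the selection. Among the 21, input could still weigh more than ChIP: at 5441803 on chromosome I the slide 2 differences were −0.15 for ChIP and 0.39 for input.

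On chromosome I from position 3750001 on the probe coordinates do not match the reference, and no gene was assigned to loci there. The window at 4525246 read −2.004 and −1.80 in +N, against −1.25 and −1.12 in −N. The window at 4358204 read −0.62 and −0.64 in +N, against 0.35 and −0.00 in −N, and passed the blocked limma test with an adjusted p of 0.0241. The window at 4447386 read −1.81 and −1.61 in +N, against −0.84 and −1.05 in −N (adjusted p = 0.0441). The groups were apart at all of these.

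The 12 weaker loss loci had differences between −0.56 and −0.97 on slide 1 and between −0.50 and −0.57 on slide 2, the last of these just inside the limit of 0.5. Where genes could be assigned they lay at mcp4 and erp5, gyp3 and psk1, bsu1 and tlc4, rbd3 and lcf2, pmp20, msp1 and zfs1, rst2 and fsv1, and scw1 and skb15. Among these, zfs1 encodes a zinc-finger protein that destabilizes mRNA and rst2 a zinc-finger activator of glucose-repressed genes, and fbp1 is one of its targets. At gyp3 and psk1 the replicates were closest: H3 was 0.13 and 0.12 in +N, against 0.69 and 0.69 in −N. Over all 24 loss loci the median difference was −0.74 on slide 1 and −0.58 on slide 2, and 21 were larger on slide 1.

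**Figure D3:**
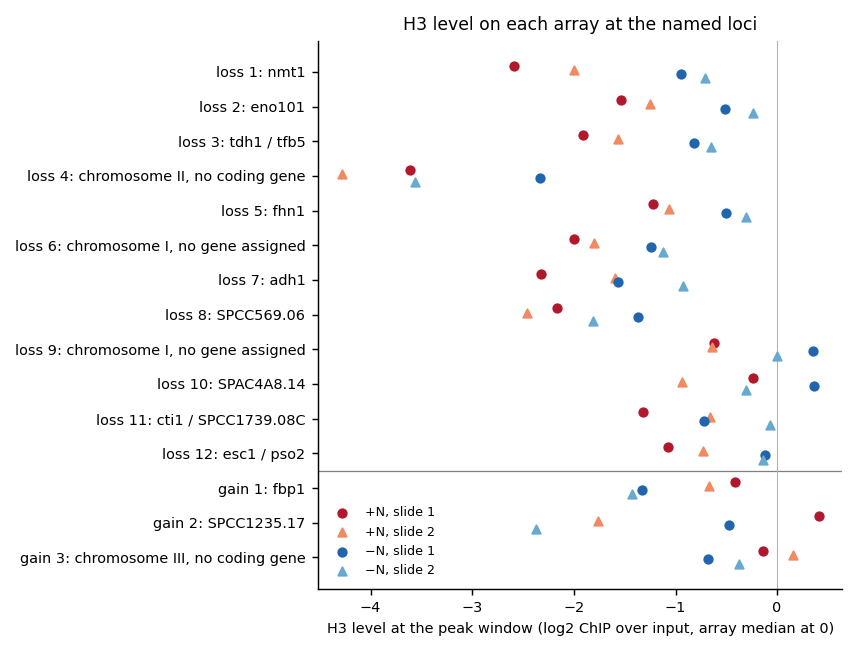
H3 level of each array at the peak window of the named loci (x axis, log2 ChIP over input with the array median at 0), with +N and −N arrays as separate symbols and 1 locus per line. At nmt1, eno101 and tdh1 the +N symbols lie left of the −N symbols, and at fbp1 they lie right of them.

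The largest gain lay upstream of fbp1, which encodes fructose-1,6-bisphosphatase, an enzyme of gluconeogenesis. In the window on chromosome II at 199360 to 200775, H3 was −0.41 and −0.67 in +N, against −1.33 and −1.43 in −N. Both +N arrays were higher than both −N arrays, by 0.92 and 0.76, and the means were −0.54 ± 0.18 in +N and −1.38 ± 0.07 in −N (SD, n = 2 each). The blocked adjusted p in limma was 0.0122. The centre lay 698 bp upstream of the 5′ end, in a region with the annotated noncoding RNAs SPNCRNA.1324 and fbp1-ot3, and all 5 probes of the window were higher in +N on both slides. Over the 300 bp before the 5′ end the level was 0.22 and −0.12 in +N, against −0.84 and −1.15 in −N. The gene body differed less, with −0.29 and −0.03 in +N, against −0.39 and −0.34 in −N. The first 250 bases upstream (RefSeq ASM294v3, chrII:199370-199619, minus strand) belong to that window and are shown with a TATAAA match on the opposite strand in capitals.
fbp1 upstream: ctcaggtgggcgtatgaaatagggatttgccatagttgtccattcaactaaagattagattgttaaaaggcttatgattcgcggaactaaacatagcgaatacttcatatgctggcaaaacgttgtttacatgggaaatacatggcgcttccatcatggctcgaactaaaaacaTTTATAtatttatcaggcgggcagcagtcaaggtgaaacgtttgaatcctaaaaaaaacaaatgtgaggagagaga

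Genes of gluconeogenesis and glucose repression were mixed. Of 20 listed, the 5′ ends of 6 were lower and of 4, fbp1 among them, higher in +N on both slides, beside 24.5% and 21.0% of all 4276 genes. Blocked limma called none of the 20, and 0.0468% of all 5′ ends. At the 5′ end of pck1, the gene of phosphoenolpyruvate carboxykinase, H3 was −0.47 and −0.49 in +N, against −0.19 and −0.04 in −N.

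The other gains were less secure. At SPCC1235.17 (chromosome III, 208170 to 209174) H3 was 0.41 and −1.76 in +N, against −0.47 and −2.37 in −N, where the slides differed more than the groups and the groups overlapped. Its slide 1 difference was 0.51 in the ChIP channel and −0.51 in the input. On chromosome III at 2308530 to 2309680, over SPNCRNA.121 and SPNCRNA.1285, H3 was −0.13 and 0.15 in +N, against −0.68 and −0.37 in −N. The ChIP channel differed there by 0.31 and 0.24 and the input by −0.38 and −0.25, so much of this gain came with less input signal. Without dim probes the mean difference there was −0.07, and with another background correction (normexp) it was −0.12, so its direction was not fixed.

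Gene by gene, limma called no 5′ end (0.0% of 4276, 61 with an unadjusted p under 0.05), no body (0.0% of 4050, 121) and no upstream region (0.0% of 3403, 34) without the block. With the slide as a block it called the 5′ ends of 2 genes (0.0468%), nmt1 (adjusted p = 0.00917) and ssa1 (0.0139), and 9 bodies (0.222%). The 5′ end of ssa1, which encodes a cytosolic Hsp70 chaperone, rested on 2 probes that read −3.49 and −1.18 in +N, against −0.80 and −0.57 in −N. Its difference was −2.69 on slide 1 and −0.61 on slide 2, and the SD of the +N arrays was 1.63. Of the 9 bodies 8 fell: nmt1, eno101, tdh1, tfb5, adh1, SPAC4G9.22 (−0.76 and −0.59 in +N, against 0.16 and 0.07 in −N), SPAC9.02C and fmn1. SPAC9.02C and fmn1 lie outside the naming rule and were taken up after their values were seen. The fmn1 body, with 2 probes, was −0.26 and −0.18 in +N, against 1.34 and 0.17 in −N, so that 1 −N array set the size of its difference.

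The body that rose was map2, the gene of the P-factor precursor made by h+ cells. It read 0.32 and −0.20 in +N, against −0.81 and −0.51 in −N, and its difference was 1.13 on slide 1 and 0.31 on slide 2. The blocked adjusted p was 0.0253. The mating pheromone list as a whole showed no common direction: 5 of 21 bodies were lower and 5, map2 among them, higher in +N on both slides.

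Among gene bodies lower in +N on both slides without a blocked call, dcp1, a subunit of the mRNA decapping enzyme, read −0.76 and −0.54 in +N, against −0.11 and 0.11 in −N. The body of rec27, which encodes a linear element protein of meiotic recombination, read −0.55 and 0.07 in +N, against 0.13 and 0.70 in −N, where the groups were narrowly apart. Their blocked adjusted p-values were 0.0708 and 0.0699. Of the 5′ ends, that of the phosphoglycerate kinase gene pgk1 read −1.53 and −1.32 in +N, against −1.08 and −0.56 in −N, and that of swc4, a subunit of the SWR1 remodelling complex, −0.998 and −0.74 in +N, against −0.42 and −0.28 in −N.

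In the other direction, the 5′ end of sro7 read 0.70 and 0.30 in +N, against −0.00 and −0.46 in −N. That of rad25, a 14-3-3 protein gene, read 0.13 and 0.01 in +N, against −0.43 and −0.57 in −N. For erg27, an enzyme of ergosterol synthesis, both the 5′ end (0.73 and 0.39 in +N, against −0.32 and −0.08 in −N) and the body (0.61 and 0.51 in +N, against 0.12 and 0.10 in −N) were higher. The body of pho84, a phosphate transporter, was −0.07 and 0.08 in +N, against −0.58 and −0.33 in −N, and that of the sterol-pathway gene erg10 was 0.55 and 0.29 in +N, against 0.04 and −0.11 in −N. In all of these the groups were apart, and none passed the limma threshold with or without the block.

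Gene groups differed little as a whole. Of heat shock and chaperone genes, the 5′ ends of 9 of 19 were lower in +N on both slides (47.4%, beside 24.5% of all genes) and 2 were higher, with a median of −0.09 (−0.01 over all genes). Among them hsp16, a small heat shock protein gene, read −1.41 and −1.17 in +N, against −0.73 and −0.76 in −N. With quantile normalization of the arrays that median was 0.00, beside 0.03 over all genes. With centring on the 10th percentile it was 0.07, beside 0.15 over all genes. Such centring moves every gene by the same amount, so it cannot test the gap between the list and all genes. Of ribosomal protein genes, 29 of 77 bodies were higher on both slides (37.7%, beside 23.4% of all) and 10 lower, with a median of 0.09. For rps802 the values were −0.73 and −0.51 in +N, against −1.11 and −0.90 in −N. Of amino acid and purine synthesis genes, 13 of 34 bodies were higher (38.2%) and 2 lower, with a median of 0.07. Both medians turned negative, to −0.02 and −0.03, once each array's trend with base composition was taken out.

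Of 29 DNA replication genes, 11 had a 5′ end higher in +N on both slides (37.9%, beside 21.0%) and 5 a lower one. Their bodies were split, with 9 higher and 10 lower, and of 22 measured upstream regions 2 were higher and 8 lower (36.4%, beside 27.8% of all). For dfp1, the regulatory subunit of the Hsk1 kinase that fires origins, the level was −0.02 and −0.07 in +N, against −0.49 and −0.43 in −N, and for the origin recognition gene orc2 it was −0.42 and −0.38 in +N, against −0.92 and −0.61 in −N. Of core histone genes 4 of 6 measured upstream regions were higher on both slides, beside 14.3% of all upstream regions, with a median of 0.40 (−0.12 over all). Their bodies did not share this: 0 of 6 were higher and 2 lower, with a median of −0.03. Upstream regions of neighbouring genes on opposite strands can hold the same probes, so the 6 histone upstream regions need not be separate measurements. Genes of the nitrogen starvation response were not set apart: 2 of 16 bodies were lower and 5 higher on both slides. The body of ste11, the transcription factor that starts sexual differentiation, was 0.40 and 0.34 in +N, against 0.59 and 0.67 in −N. Of 22 meiotic genes, 4 bodies were lower and 3 higher. In the blocked limma fit no gene of the ribosomal protein, amino acid, replication, histone, nitrogen or meiotic lists was called. Centring on the 10th percentile in place of the median moved the median of all gene bodies to 0.17.

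More of the loss loci than of all windows lay at 3′ ends of genes. Of the 19 in the part of the genome matched to the annotation, 12 (63.2%) held the 3′ end of a coding gene and no 5′ end, beside 18.5% of 31930 windows. In 7 (36.8%, beside 11.7%) the 3′ ends of a convergent pair lay together, as at esc1 and pso2, bsu1 and tlc4, and msp1 and zfs1. Only 4 (21.1%, beside 48.7%) held a 5′ end, those of nmt1, adh1, tfb5 and pmp20, and 3 held no end. Many of the 3′ loci depended on which probes were kept. With dim probes left out, the loci at esc1 and pso2, mcp4 and erp5, and rbd3 and lcf2 were not found. Nor were those at rst2 and fsv1, scw1 and skb15, SPCC569.06 or SPAC4A8.14, while bsu1 and tlc4, and msp1 and zfs1, were. Absence under that setting does not by itself mark dim spots. At scw1 and skb15 all 10 ChIP measurements of each group were well above background, and the slide 2 difference of −0.505 lay at the limit. Why single loci dropped out was not tested. Windows of convergent pairs in general were lower in +N on both slides in 47.4%, against 26.8% of all windows, with mean differences of −0.18 on slide 1 and −0.07 on slide 2. Averaged over coding genes, H3 in the first 100 bp after the 3′ end was −0.80 and −0.39 in +N, against −0.31 and −0.34 in −N. The deeper 3′ trough was thus seen on slide 1, at −0.49, while slide 2 differed by −0.05.

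**Figure D4:**
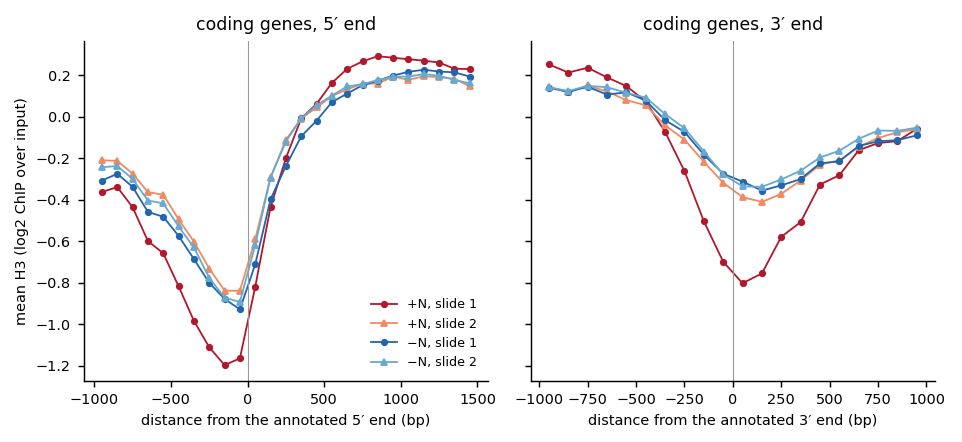
Mean H3 level of probes (y axis, log2 ChIP over input) by distance from the annotated 5′ and 3′ ends of coding genes (x axes, bp), 1 line per array. On slide 1 the +N line falls below the −N line at both troughs (−1.20 against −0.88 before the 5′ end), and on slide 2 the lines nearly coincide (−0.84 against −0.87).

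Base composition moved with the slide 1 difference. With windows ordered by G+C into 10 equal groups, from the lowest (mean 30.4%) to the highest (42.3%), the mean difference ran from −0.32 to 0.20 on slide 1 and from 0.01 to 0.03 on slide 2. Loss loci had a median G+C of 33.6%, all windows 36.0%. When the trend with base composition was removed from every array, 18 loss loci were found and 12 of the 19 were overlapped, among them nmt1, eno101, tdh1 and fhn1. Of those 18, 5 (27.8%) held a 3′ end and no 5′ end and 9 held no end. On slide 2 alone, where the trend was small, 23 of 57 loss loci (40.4%) held a 3′ end and no 5′ end, beside 237 of 893 (26.5%) on slide 1 alone. The upstream regions of all genes likewise had a median difference of −0.12, made of −0.31 on slide 1 and 0.04 on slide 2. How much of the position at 3′ ends goes with base composition was not tested further.

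**Figure D5:**
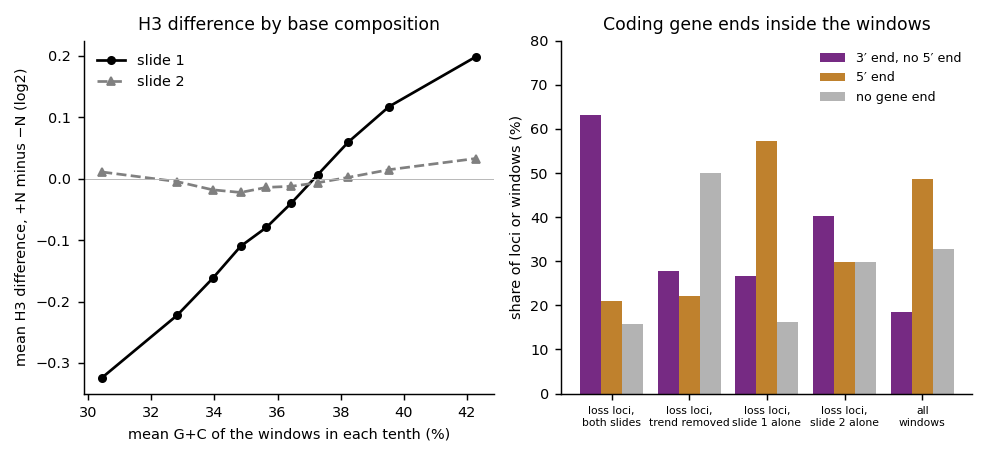
Left, mean H3 difference, +N minus −N in log2 (y axis), for 10 equal groups of windows ordered by G+C (x axis, %), running from −0.32 to 0.20 on slide 1 and staying near 0 on slide 2. Right, share (%) of loss loci and of all windows that hold coding gene ends, with 63.2% of loss loci and 18.5% of windows holding a 3′ end and no 5′ end.

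Where the slides differed most, H3 changed on 1 of them only or in opposite directions. Over mamRNA, a long noncoding RNA of the meiotic mRNA elimination pathway (chromosome II, 1307147 to 1308530), H3 was −3.05 and −1.96 in +N, against −1.03 and −1.81 in −N. Slide 1 gave a difference of −2.01 and slide 2 one of −0.16, yet blocked limma called it with an adjusted p of 5.15e-05. At msa1, which encodes an RNA-binding repressor of sexual differentiation (chromosome I, 2321384 to 2322711), the window read 0.20 and −0.92 in +N, against −1.15 and −0.38 in −N. At mug124 (chromosome II, 1685715 to 1686681) it read −1.73 and −1.23 in +N, against −0.28 and −1.53 in −N. These groups overlapped at msa1 and mug124.

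H3K4Me3, a mark of the 5′ parts of active genes carried on H3 itself, was compared at the same loci. It was lower in +N on both slides in 15 of 24 loss loci, beside 30.3% of all windows, and higher on both in 2. At some loci the log2 difference was larger for H3K4Me3 than for H3. At adh1 the H3K4Me3 level was −1.11 and −0.39 in +N, against 1.18 and 1.62 in −N. At eno101 it was 0.23 and 0.18 in +N, against 2.02 and 1.91 in −N. The mean H3K4Me3 differences at adh1 and eno101 were −2.15 and −1.76, beside H3 differences of −0.71 and −1.02. The H3K4Me3 arrays had a wider spread, with an SD over windows of 1.18 to 1.47, against 0.46 to 0.64 for H3. Differences of the 2 antibodies are therefore not on one scale. On slide 1 the H3K4Me3 ChIP signal was well above background at 44.6% of probes in +N and 56.8% in −N. With the slide as a block, limma called 5.47% of all windows for H3K4Me3, and the adjusted p was 2.62e-15 at adh1 and 3.67e-10 at eno101. Without the block it called none (0.0%). At nmt1 the H3K4Me3 level was −0.94 and −2.31 in +N, against −0.87 and −1.17 in −N, so that slide 1 hardly differed. A limma interaction over all 8 arrays, which asks whether the H3 and H3K4Me3 differences themselves differ, called no window (0.0%), and its smallest adjusted p at a loss locus was 0.994. With the slide as a block it called none either.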

How the data were processed

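ChIP and input DNA were amplified with T7 RNA polymerase, labelled with Alexa dyes, and hybridized to Agilent arrays carrying 42641 nuclear probes. The deposited intensity values are the red and green processed signals of Agilent Feature Extraction 10.7.3.1, which the authors obtained background-subtracted and dye-normalized. The deposited log2 ratio table of the same arrays was used as an alternative. Labels place the ChIP in red on every array and give no dye swap. The study's methods call the input reciprocally labelled without naming the dye of any array, and the labels were followed. Without a swap, dye bias and enrichment cannot be told apart.

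Of these, 5402 carried an outlier mark on at least 1 of the 8 arrays and were dropped, log2 red over green was centred on the array median, and 5 probes were averaged along each chromosome. Gene values were means over probes 250 bp upstream to 750 bp downstream of the 5′ end, over the body (at least 2 probes), and 300 bp upstream. Which build the coordinates follow is not given in the sources used here. Probe positions matched ASM294v3 on chromosomes II and III and on I before 3750001 (85.8% of nuclear probes), and genes were assigned only there. Tests were two-sided limma 3.58.1 fits (R 4.3.3, lmFit and eBayes) with Benjamini-Hochberg adjustment over all features called at an adjusted p under 0.05, and scripts were tested on simulated data. Other steps used Python 3.11.15 with pandas 2.3.3, numpy 2.4.6 and matplotlib 3.10.9. A locus merged windows, sharing probes, with a difference of at least 0.5 in 1 direction on both slides.

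Equal replicate numbers mark a shared slide in the file headers. The deviations of replicate 1 from replicate 2 had a correlation of 0.212 between +N and −N across 37227 windows, and with this shared slide the numbers were taken to pair the arrays. The number of arrays limits the precision.

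The members and gene lists were chosen with earlier results of these data known. Named were the 12 strongest loci in each direction by the weaker slide (all gains), the 3 loci with the largest gap between slides, and, by the weaker slide, 10 genes in each direction per region and up to 4 members per list. Those with values in the text are a part of these. Alternatives were the slide block, other centring, quantile normalization, a common spread, other background corrections (normexp with an offset of 50, on median signals because mean signals were not used here), dim, saturated or multi-copy probes left out, other window sizes and thresholds, and each array left out. Chosen after seeing the data were outliers of the H3 arrays only, removal of the base composition trend (500 bp around a probe, 50 bins), and each slide alone.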

Additional observations from a re-analysis of the deposited data

How the results depend on the processing

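Among the named loci and genes, the mean difference changed sign under an alternative only at both weaker gains and at 2 loci where the slides disagreed. The gain at 2308530 was 0.54 as measured, −0.12 with normexp and −0.07 without dim probes. SPCC1235.17 (0.74) read −0.35 without replicate 1 of +N and −0.21 without replicate 2 of −N, msa1 (0.41) read −0.15 without replicate 1 of +N, and mug124 (−0.57) read 0.05 without replicate 1 of −N. The slide as a replicate block gave 52 called windows, 2 called 5′ ends and 9 called bodies, against 0 of each without it, and 2035 windows for H3K4Me3, also against 0. Quantile normalization gave 4 windows. Centring on the 10th percentile and a common spread gave 1 body each, nmt1. Leaving out 1 array in turn gave 0 to 503 windows, 0 to 2 5′ ends and 0 to 1 bodies. The 503 windows came without replicate 2 of +N, 6 came without replicate 1 of −N and 20 without replicate 2 of −N. There the lone array is assumed to vary like the other group.

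Loss loci numbered 24 as reported, and 39 in the deposited ratio table, 13 without dim probes, 99 with windows of 3 probes, 489 with single probes, 72 at 0.4, 5 at 0.7, 1047 on slide 1 alone and 67 on slide 2 alone. Other settings gave 17 to 31. Gain loci numbered 3 as reported, and 8 with centring on the 10th percentile, 7 with quantile normalization, 10 with a common spread, 1 with normexp, 6 with background-subtracted signals, 7 in the deposited table, 1 with dim signals at the floor, 11 with 3 probes, 208 with single probes, 6 without the base composition trend, 15 at 0.4, 1 at 0.7, 623 on slide 1 alone and 64 on slide 2 alone. The causes were not tested. Loci need both slides, so they have no value with an array left out or with a block.

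The losses at nmt1, eno101, tdh1 and fhn1 and the gain at fbp1 were found under all 14 settings checked. adh1 was found under 12, not with centring on the 10th percentile or a common spread. Other loss loci were less stable. Those at SPAC4A8.14 and at rbd3 and lcf2 were found under 6, and that at mcp4 and erp5 under 7. Those at pmp20 and at rst2 and fsv1 were found under 9, and that at SPCC569.06 under 10. The locus at esc1 and pso2 was found under 11, not with normexp, without dim probes or with dim signals at the floor. At eno101 the mean difference was −1.02 as measured and −0.75 with normexp. Dim ChIP signal, mostly on slide 1, limits the depth of any loss.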

Other observations

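Small nucleolar RNA genes, which guide the modification of ribosomal RNA, were a class outside the comparisons above, taken up after their values were seen. Of 33 measured, 15 (45.5%) had lower H3 in +N on both slides and 0 had higher H3, beside 24.7% and 23.2% of coding genes. Their median level was −0.99 and −0.52 in +N, against −0.54 and −0.31 in −N. The snR93 gene read −0.99 and −1.02 in +N, against 0.01 and −0.25 in −N. Most of these genes rest on 1 probe and some overlap and share probes. Of 19 measured pseudogenes, 9 (47.4%) had higher H3 in +N on both slides and 3 had lower H3.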
